A study of Papio anubis with 25 samples.

Results

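The endoplasmic reticulum (ER) genes described here carry out protein entry into the ER, folding, retention of ER residents and stress sensing. They were chosen as a fixed list of 42 symbols and read in 25 bulk RNA libraries. Of the 42 symbols, 40 were found among the 21287 genes of the deposited table, and PDIA2 and CRELD2 were not analysed here. The libraries came from flash-frozen parotid, submandibular and sublingual salivary gland, pancreas and liver of 5 olive baboons (Papio anubis), with 1 library per tissue and animal. Animals 1 to 4 were female and animal 5 was male, so sex and animal cannot be told apart. The labels give no treatment, genotype or age, and the animals were compared as they were sampled. The series was designed around amylase genes, with gland against pancreas and pancreas against liver as its stated comparisons, and here the same contrasts were applied to the ER genes. Values are TPM, a transcript abundance corrected for transcript length and expressed relative to the library total. Errors are standard deviations (SD) over the 5 animals of a tissue.

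Secreted proteins enter the ER while they are being made. The signal recognition particle binds the signal peptide of the growing chain, its receptor docks the ribosome, the SEC61 channel with its TRAP and SEC62/SEC63 partners passes the chain through the membrane, and signal peptidase removes the signal peptide. Chaperones and disulfide isomerases fold the chain, KDEL receptors return escaped ER residents, and the sensors ERN1 (IRE1) and ATF6, with the transcription factor XBP1, raise the capacity of the ER when unfolded protein builds up. Pancreatic acinar cells and salivary acinar cells store digestive and salivary proteins in granules, whereas hepatocytes release plasma proteins without storing them.

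The labelled tissues carried their own markers. The 7 acinar markers summed to 66936 to 135850 TPM in pancreas and to at most 1927 TPM in any other library, and the 6 liver markers summed to 42529 to 72913 TPM in liver and to at most 1094 TPM elsewhere. The gland libraries were uneven. AQP5, a water channel of salivary acinar cells, stood at 40.5 to 226 TPM in 10 of the 15 gland libraries and at 2.25 to 5.40 TPM in the parotid of animals 2 and 5, the submandibular gland of animal 2 and the sublingual gland of animals 2 and 4. Markers of other cell types were high in these 5 libraries. The 5 fat markers summed to 21274 TPM in parotid 2 and 2775 TPM in submandibular 2, the 4 plasma-cell markers to 2619 TPM in parotid 5 and the 5 skeletal muscle markers to 88018 TPM in sublingual 2. The 5 markers of stratified mucosa summed to 112678 and 49027 TPM in sublingual 1 and 4. Fat markers also reached 6860 TPM in submandibular 5, and plasma-cell markers 8970 TPM in sublingual 5. In bulk tissue, fewer cells of a type and less RNA per cell cannot be told apart.

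The 40 genes together took 0.130% to 0.576% of a library. The sum was 3010 ± 516 TPM in pancreas (SD, n = 5) and 3074 ± 729 TPM in liver. It reached 5179 and 5765 TPM in parotid 2 and 5 against 1299, 1585 and 1568 TPM in parotid 1, 3 and 4. In the submandibular gland animal 2 had 5278 TPM and the other 4 animals 1319 to 2200 TPM, and the sublingual gland ranged from 1624 to 4136 TPM. The 10 most abundant genes took 66.2% to 87.7% of the transcripts in parotid 1, 3 and 4, and 18.0% and 24.4% in parotid 2 and 5. The same held for the submandibular gland, with 16.2% in animal 2 and 57.9% to 83.2% in the others. TPM is a share of the library, so a few very abundant secretory transcripts lower every other gene, and how far this moved the sums was not tested.

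**Figure D1:**
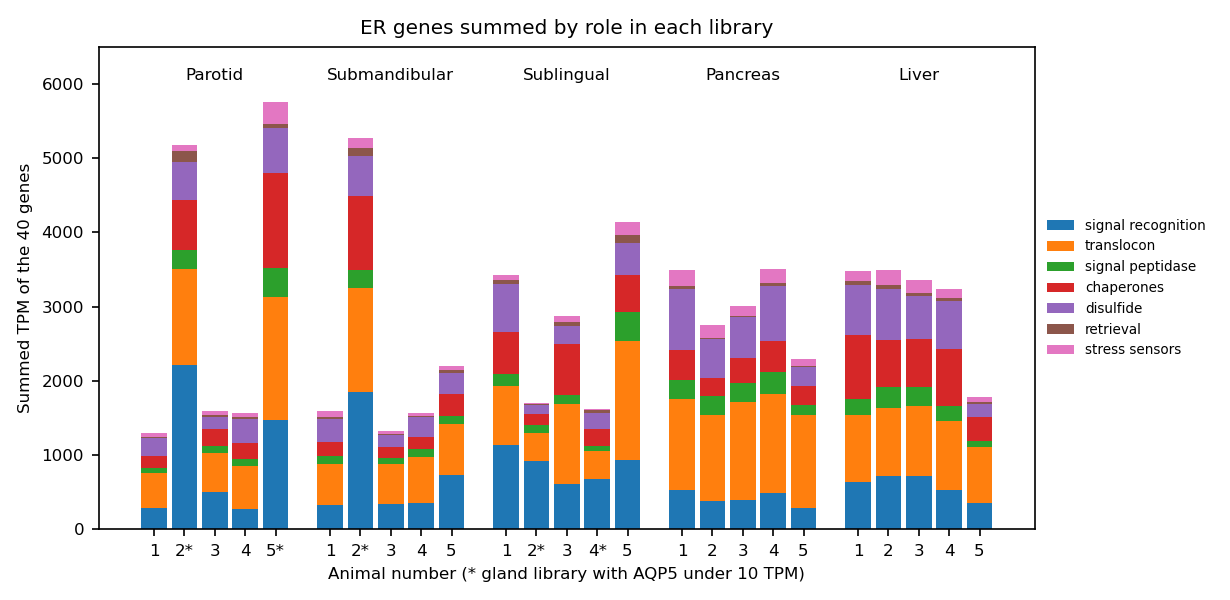
Summed TPM of the 40 ER genes (vertical axis, starting at 0) in each library, stacked by role and grouped by tissue, with an asterisk at the 5 gland libraries in which AQP5 was under 10 TPM. Pancreas and liver are even, between 1782 and 3505 TPM, whereas parotid and submandibular gland hold both the lowest and the highest sums.

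The mix of roles differed between pancreas and liver. The 10 translocon genes made up 34.9% to 55.2% of the summed ER genes in pancreas, against 26.1% to 42.6% in liver, and these ranges overlap. The 9 chaperones made up 8.98% to 12.1% of the sum in pancreas against 17.9% to 24.8% in liver, and the 8 genes of signal recognition 12.2% to 15.2% against 16.4% to 21.4%, with no overlap in either case. These shares are independent of how libraries are scaled to each other. They were described after their values were seen and carry no test. The signal recognition share rested mostly on SRP14 and SRP9. Their pancreas medians were 188 and 72.5 TPM, where the median sum of the 8 genes was 388 TPM. Gene by gene, 5 of the 8 were higher in pancreas than in liver and 3 lower, at a median log2 difference of 0.06.

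All 40 genes passed the filter on low values, a tissue mean of 1 TPM or more, and none was at 0 in any library. The lowest value was 0.486 TPM, for the stress sensor ERN1 in sublingual 2. The highest was 1165 TPM, for SRP14 in parotid 2, a fat-rich library. By median, pancreas was the highest tissue for 12 of the 40 genes (30.0%), liver for 12, sublingual gland for 10, parotid for 4 and submandibular gland for 2. Over all 14991 genes tested, pancreas was the highest tissue for 7.15%, liver for 35.6%, sublingual gland for 39.4%, parotid for 14.8% and submandibular gland for 3.09%. The 40 genes were chosen with earlier results of these data known, so these shares are a description and no test. The gene leading the order differed by tissue: SSR4 led in pancreas with a median of 493 TPM, SEC61B in submandibular gland with 193 TPM, and SRP14 in liver, parotid and sublingual gland with 343, 241 and 415 TPM. ERO1B had the widest range of medians over the 5 tissues, 12.9-fold, followed by PDIA4 with 8.05-fold. ERN1 and SEC61A1 had the narrowest, 1.28-fold and 1.32-fold.

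**Figure D2:**
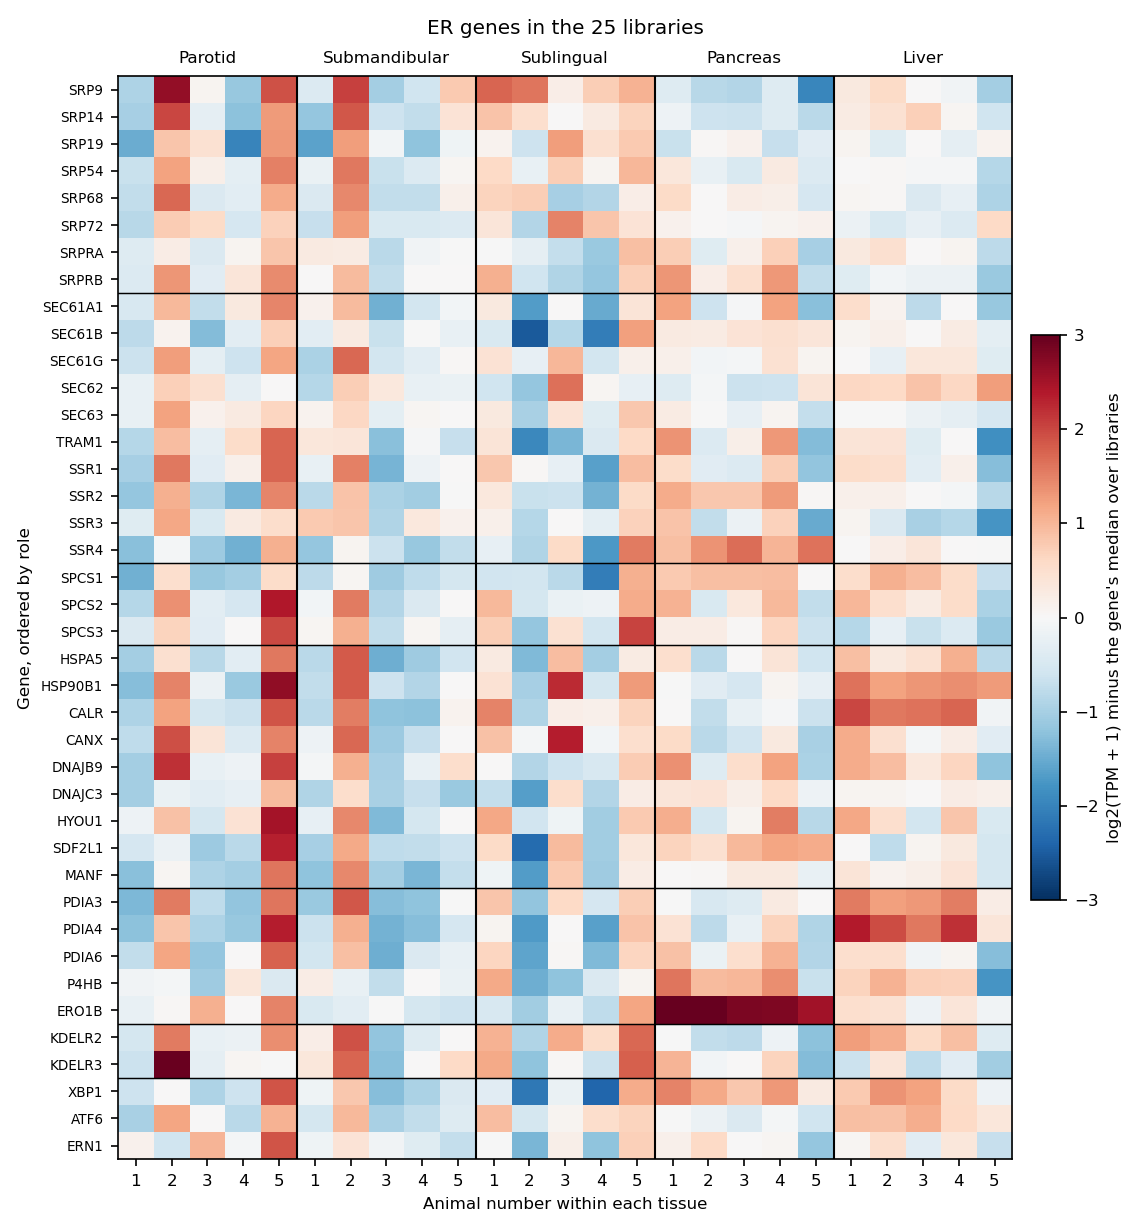
Expression of the 40 ER genes, as log2(TPM + 1) minus the gene's median over the 25 libraries, with genes in rows ordered by role and animals 1 to 5 in columns within each tissue. ERO1B, SSR4 and SDF2L1 stand above their medians in all 5 pancreas libraries, and the columns of parotid 2 and 5 and submandibular 2 differ from the other gland columns across most rows.

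Differences were tested with limma on log2(TPM + 1), with tissue and animal as terms and Benjamini-Hochberg adjustment over 14991 genes. The word called is used for genes that had both an adjusted p under 0.05 and at least a 2-fold difference, that is, 1 on the log2 scale. Few ER genes were called: 2 of 40 in parotid against pancreas, 2 in submandibular gland against pancreas, 3 in sublingual gland against pancreas and 1 in pancreas against liver. The shares of all genes called were 3.82%, 4.08%, 9.47% and 17.5% in the same order. By direction, 1.41%, 1.27% and 6.97% of all genes were called higher in parotid, submandibular and sublingual gland than in pancreas, and 2.40%, 2.81% and 2.49% lower. Between pancreas and liver, 2.86% were called higher in pancreas and 14.6% higher in liver. Against liver, no ER gene was called for parotid and 1 each for submandibular and sublingual gland, where 13.8%, 16.5% and 15.4% of all genes were called. Both were higher in liver, the direction of 13.9% of all genes for submandibular and 9.52% for sublingual gland. Between parotid and liver, 2 ER genes had an unadjusted p under 0.05, with a smallest adjusted p of 0.105 (limma). Of all 14991 genes, 3843 had an unadjusted p under 0.05 there. Between glands none was called, at 1, 0 and 0 ER genes with an unadjusted p under 0.05. For parotid against submandibular, parotid against sublingual and submandibular against sublingual gland, 254, 1368 and 2109 of all genes had an unadjusted p under 0.05. Over all genes 0 (0.00%) were called between parotid and submandibular gland, 0.113% between parotid and sublingual gland and 0.0667% between submandibular and sublingual gland.

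Scaling moved these counts. With TMM scaling of the TPM values, which sets libraries to a common level for the bulk of genes, the ER genes called were 6, 5, 16 and 9 for parotid, submandibular and sublingual gland against pancreas and for pancreas against liver, with 8.16%, 8.51%, 10.8% and 18.3% of all genes. The median log2 difference of all genes between sublingual gland and pancreas was 0.63 as deposited and 0.10 with TMM, and between pancreas and liver -0.44 and -0.03. Of the calls over all genes between sublingual gland and pancreas, 73.6% were higher in the gland as deposited and 38.4% with TMM. Between pancreas and liver, 16.3% were higher in pancreas as deposited and 38.8% with TMM. Against liver, 20.6% and 35.6% were higher in parotid, and 15.8% and 38.4% in submandibular gland. The median ER gene was 0.07 between pancreas and liver as deposited, against -0.44 for all genes. With TMM it was 0.70, against -0.03. Against pancreas the median ER gene stood at 0.18, -0.20 and -0.11 in parotid, submandibular and sublingual gland, where all genes stood at 0.45, 0.17 and 0.63. With TMM it stood at -0.29, -0.37 and -0.86, against 0.06, 0.03 and 0.10 for all genes, so that parotid changed sign.

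The 8 signal recognition genes code for proteins of the particle and for both subunits of its receptor. SRP9, which with SRP14 forms the domain that pauses translation, was higher in sublingual gland than in pancreas. Its levels in animals 1 to 5 were 437, 398, 149, 216 and 267 TPM in sublingual gland and 98.8, 72.5, 70.1, 98.9 and 32.8 TPM in pancreas. The groups did not overlap and the gland was higher in 5 of 5 animals. The log2 difference was 1.95 (SE 0.59, limma adjusted p = 0.0406), and 1.15 with TMM scaling. The highest levels, in sublingual 1 and 2, came from the libraries with 112678 TPM of mucosa markers and 88018 TPM of muscle markers, and the part of those cells in SRP9 was not tested. The call was lost without the animal block (limma adjusted p = 0.0639), without the filter on low values (limma adjusted p = 0.0556) and without animal 1, 3, 4 or 5 (limma adjusted p between 0.0769 and 0.142). It was also lost with TMM scaling without the libraries low in AQP5, where the log2 difference was 0.98.

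SRP14 was also higher in sublingual gland in 5 of 5 animals, at 291 to 530 TPM against 165 to 260 TPM in pancreas. The groups did not overlap, but the difference was not called (log2 0.99, limma adjusted p = 0.198). In parotid and submandibular gland SRP9 and SRP14 were highest in animal 2, at 812 and 1165 TPM in parotid and 539 and 1054 TPM in submandibular gland, both libraries with low AQP5 and fat markers at 21274 and 2775 TPM. The part of these markers in the SRP levels was not tested. The other 6 genes had tissue medians between 7.08 and 41.8 TPM, and no difference was called for SRP19, SRP54, SRP68, SRP72 or the receptor subunits SRPRA and SRPRB. SRPRB, the membrane anchor of the receptor, was higher in pancreas than in liver in 5 of 5 animals, at 44.3, 19.9, 24.8, 43.6 and 9.91 TPM against 13.0, 16.2, 15.0, 15.0 and 7.41 TPM, and the groups overlapped (log2 0.90, SE 0.52, limma adjusted p = 0.262).

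Among the translocon genes, SSR4, a subunit of the TRAP complex that sits beside the SEC61 channel, stood below pancreas in all 3 glands. Pancreas had 358, 493, 613, 389 and 602 TPM in animals 1 to 5. Parotid had 80.7, 184, 90.1, 69.7 and 404 TPM, submandibular gland 85.7, 205, 123, 86.5 and 116 TPM, and sublingual gland 163, 103, 288, 57.5 and 567 TPM. Pancreas was higher within each of the 5 animals in all 3 comparisons. The submandibular group did not overlap pancreas, whereas animal 5 reached the range of pancreas in parotid and sublingual gland. These 2 libraries had the highest plasma-cell marker sums of all 25, 2619 and 8970 TPM, and the part of plasma cells in their SSR4 was not tested. The log2 differences were -1.87 in parotid (limma adjusted p = 0.0185), -2.03 in submandibular gland (limma adjusted p = 0.00924) and -1.46 in sublingual gland (limma adjusted p = 0.0485), each with an SE of 0.46.

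Liver had 191 to 249 TPM of SSR4, below every pancreas library (log2 1.20 for pancreas over liver, SE 0.46, limma adjusted p = 0.0804). When animal 1, 3 or 4 was left out, SSR4 was not called against pancreas in any gland, and without animal 2 it was not called in sublingual gland. SSR4 was also not called in parotid or sublingual gland when only the compared tissues were fitted, nor in sublingual gland without the animal block. Without the 5 gland libraries with AQP5 under 10 TPM, a set chosen after the data were seen, its log2 differences were -2.44, -2.22 and -0.74 in the same order of glands, and the last was not called (limma adjusted p = 0.0691).

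The other TRAP subunits did not share this pattern to the same degree. SSR2 had a median of 122 TPM in pancreas and 36.7, 39.2, 44.1 and 69.2 TPM in parotid, submandibular gland, sublingual gland and liver, with overlapping groups and no call. With TMM scaling SSR2 was called against pancreas in all 3 glands, at log2 differences of -1.47, -1.36 and -1.96. SSR1 medians lay between 11.5 and 16.6 TPM. SSR3 was lowest in liver, at 6.44 to 25.7 TPM, with no call. The ratio of SSR4 to SSR1 within a library was 15.2 to 99.8 in pancreas and 8.72 to 34.3 in liver. It was 3.95 to 11.6 in parotid, 4.62 to 24.1 in submandibular gland and 6.04 to 23.3 in sublingual gland, and the ranges of liver, submandibular and sublingual gland overlapped that of pancreas.

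SEC61A1, the pore-forming subunit of the channel, varied little between tissue medians as deposited and much within tissues. It stood at 38.4, 10.1, 15.7, 38.6 and 6.16 TPM in pancreas and at 23.7, 17.4, 8.89, 16.1 and 6.76 TPM in liver. Its log2 difference was 0.36 between pancreas and liver (SE 0.59, limma adjusted p = 0.752) and 0.20, -0.30 and -0.60 for parotid, submandibular and sublingual gland against pancreas (SE 0.59, limma adjusted p = 0.860, 0.932 and 0.463), all with overlapping groups. With TMM scaling SEC61A1 and SEC61B were called lower in sublingual gland than in pancreas. The small subunits SEC61B and SEC61G were far more abundant than SEC61A1. SEC61B stood at 267 to 318 TPM in pancreas and 184 to 266 TPM in liver, and these groups did not overlap, although the difference was not called (log2 0.32, limma adjusted p = 0.745). SEC62, which helps chains enter after their synthesis, went the other way, with 52.0 to 108 TPM in pancreas and 126 to 198 TPM in liver (log2 -1.05, SE 0.44, limma adjusted p = 0.108). SEC63, which recruits the chaperone HSPA5 to the channel, had medians of 10.3 to 14.6 TPM.

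TRAM1, a membrane protein beside the channel, was uneven between animals in pancreas, with 97.5 and 94.2 TPM in animals 1 and 4 and 14.8 TPM in animal 5. SEC61A1 was likewise highest in animals 1 and 4 and lowest in animal 5 there. Of the 3 signal peptidase subunits, SPCS1 had medians of 202 TPM in pancreas and 157 TPM in liver against 52.3, 62.6 and 71.2 TPM in parotid, submandibular and sublingual gland. Animal 5 departed from the rest, with 107 TPM in pancreas and 225 TPM in sublingual gland. SPCS2 and SPCS3 had lower medians, between 16.2 and 36.0 TPM, and no signal peptidase gene was called in any comparison.

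The chaperones showed no call as deposited. HSPA5 (BiP), the main ER chaperone and the protein that holds the stress sensors inactive, stood at 91.6, 36.1, 64.1, 83.7 and 41.8 TPM in pancreas and at 122, 78.7, 88.0, 135 and 36.0 TPM in liver. In the submandibular gland animal 2 had 231 TPM and the others 22.7 to 42.7 TPM. Its log2 differences were 0.08, -0.31 and -0.08 for the 3 glands against pancreas in the order above, and -0.49 between pancreas and liver, with SE 0.64 and limma adjusted p between 0.682 and 0.955. The direction was not stable for parotid, sublingual gland or liver: with TMM scaling parotid against pancreas was -0.40 and pancreas against liver 0.18, and without animal 4 sublingual gland against pancreas was 0.26.

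Neither the lectin chaperones of glycoproteins nor the ER HSP90 passed the test between pancreas and liver. HSP90B1, which folds a limited set of client proteins, stood at 101 to 135 TPM in liver and 30.3 to 45.5 TPM in pancreas, with no overlap (log2 -1.57 for pancreas against liver, SE 0.65, limma adjusted p = 0.108). CALR, the soluble lectin chaperone, stood at 430, 322, 330, 361 and 98.0 TPM in liver and 106, 62.8, 90.7, 103 and 68.1 TPM in pancreas. Liver was higher in 5 of 5 animals, and the liver of animal 5 fell within the range of pancreas (log2 -1.70, SE 0.62, limma adjusted p = 0.0617). Its membrane-bound relative CANX had medians of 9.65 TPM in pancreas and 17.6 TPM in liver, with 4 of 5 animals higher in liver. Its log2 difference of -0.58 for pancreas against liver became 0.05 with TMM scaling.

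SDF2L1, a partner of HSPA5 co-chaperones, was higher in pancreas than in liver without overlap. It stood at 28.2, 24.7, 35.1, 40.7 and 38.6 TPM in pancreas and 17.4, 9.85, 18.3, 21.6 and 11.7 TPM in liver (log2 1.07, SE 0.61, limma adjusted p = 0.266). Against pancreas its log2 differences were -0.93, -1.28 and -1.18 in parotid, submandibular and sublingual gland (SE 0.61, limma adjusted p = 0.393, 0.405 and 0.187). Parotid 5 had 92.1 TPM and the other parotid libraries 7.69 to 15.3 TPM. With TMM scaling all 4 differences were called, at 1.72, -1.40, -1.46 and -1.97.

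MANF, a secreted and ER-retained stress protein, stood at 48.1 to 69.9 TPM in pancreas and 38.7 to 75.7 TPM in liver. DNAJC3, an HSPA5 co-chaperone, was even in liver, at 7.94 to 9.50 TPM. DNAJB9 and HYOU1 varied within tissues: HYOU1, which exchanges nucleotide on HSPA5, ran from 2.41 to 16.7 TPM in pancreas and 1.42 to 15.4 TPM in submandibular gland, its library of animal 2 being the highest.

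ERO1B, the oxidase that recharges protein disulfide isomerase and that is known for high levels in pancreas, had the widest difference between tissues of the 40 genes. Pancreas had 45.3, 50.4, 38.3, 37.1 and 30.5 TPM in animals 1 to 5. Liver had 3.93 to 6.86 TPM, parotid 3.72 to 14.5 TPM, submandibular gland 2.56 to 4.48 TPM and sublingual gland 1.69 to 11.5 TPM. No library of another tissue reached the lowest pancreas value. The log2 difference between pancreas and liver was 2.68 (SE 0.41, limma adjusted p = 2.25e-05), higher in 5 of 5 animals. Against pancreas it was -2.41 in parotid (limma adjusted p = 0.000396), -3.27 in submandibular gland (limma adjusted p = 5.70e-06) and -3.15 in sublingual gland (limma adjusted p = 1.05e-05). The sole alternative of 16 that ended one of these 4 calls was a fit to parotid and pancreas alone (limma adjusted p = 0.0678).

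**Figure D3:**
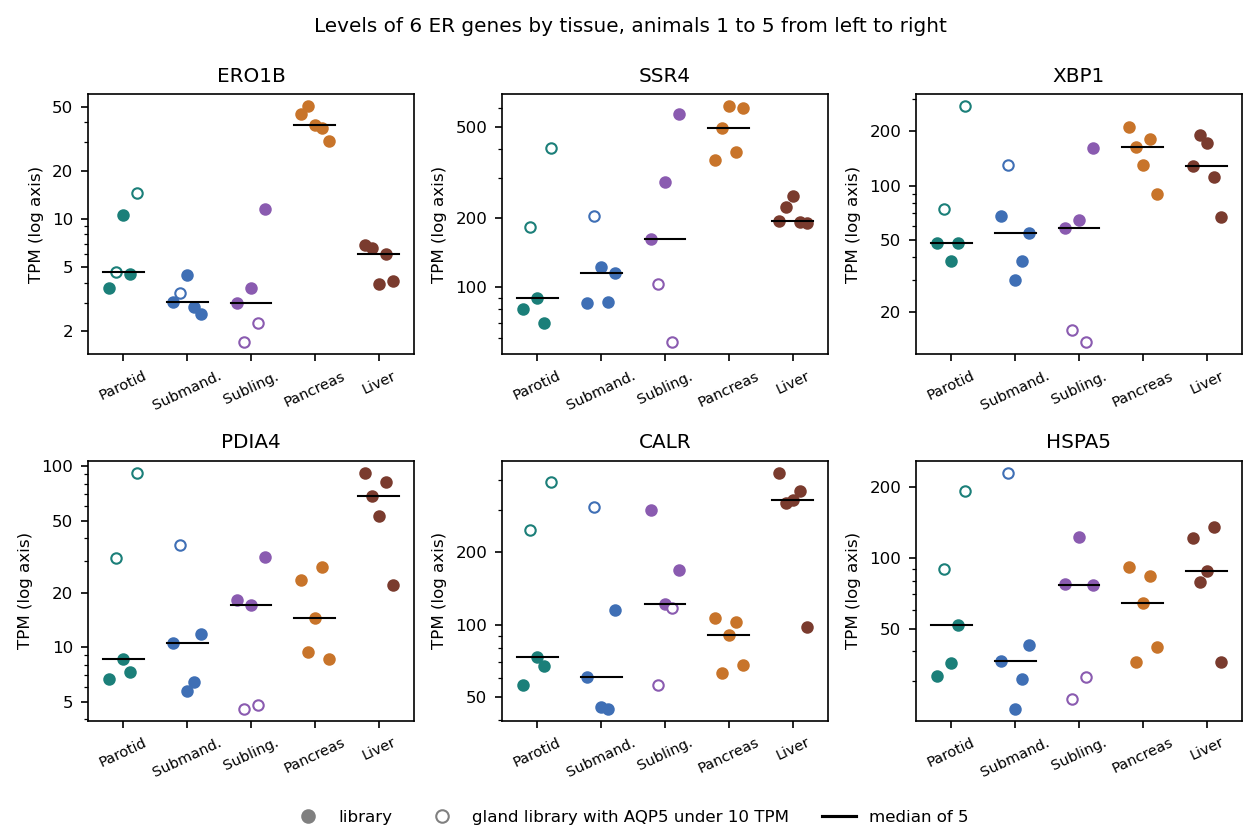
TPM on a logarithmic axis of 6 ER genes in the 5 tissues, with 1 point per library, animals 1 to 5 from left to right and a bar at the tissue median. All 5 pancreas points of ERO1B, from 30.5 to 50.4 TPM, stand above every point of the other tissues, whereas the points of HSPA5 and XBP1 overlap between all tissues.

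PDIA4, a disulfide isomerase, was higher in liver than in 2 glands. Liver had 92.2, 68.8, 53.3, 81.3 and 22.1 TPM. Submandibular gland had 10.5, 36.6, 5.70, 6.41 and 11.8 TPM, and sublingual gland 18.2, 4.56, 17.0, 4.80 and 31.6 TPM. The groups overlapped through the liver of animal 5. Liver was higher in 5 of 5 animals against submandibular gland (log2 -2.25, SE 0.68, limma adjusted p = 0.0233) and in 4 of 5 against sublingual gland (log2 -2.17, SE 0.68, limma adjusted p = 0.0303). Leaving out animal 1, 3 or 4 ended both calls, and leaving out animal 2 ended the second (limma adjusted p between 0.0838 and 0.179 over these fits). Pancreas, at 8.63 to 27.8 TPM, was also below liver in 5 of 5 animals without a call (log2 -1.85, SE 0.68, limma adjusted p = 0.0632).

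PDIA3, the isomerase that works with CALR and CANX on glycoproteins, had a median of 165 TPM in liver and 65.8 TPM in pancreas (log2 -1.29 for pancreas against liver, SE 0.64, limma adjusted p = 0.186). P4HB, the classical protein disulfide isomerase, had medians of 385 TPM in pancreas and 313 TPM in liver. Animal 5 was far lower in both, at 121 and 56.0 TPM. PDIA6 medians lay between 33.4 and 64.9 TPM with no call. P4HB was 14.0 to 40.1 times PDIA4 in pancreas and 2.53 to 5.96 times PDIA4 in liver.

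Of the retrieval receptors, KDELR2 was lower in pancreas than in liver in 5 of 5 animals, at 8.08 to 20.3 against 15.3 to 50.1 TPM (log2 -1.27, SE 0.58, limma adjusted p = 0.146). KDELR3 had medians of 8.89 TPM in pancreas and 5.35 TPM in liver. The ratio of KDELR2 to KDELR3 was 1.07 to 2.70 in pancreas against 3.81 to 9.35 in liver. In parotid the fat-rich library of animal 2 had 76.8 TPM of KDELR3 and the others 5.33 to 9.31 TPM.

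XBP1, whose spliced form drives genes of the secretory pathway, stood at 211, 164, 130, 182 and 89.9 TPM in pancreas and 128, 191, 172, 111 and 66.6 TPM in liver, which overlapped (log2 0.25, SE 0.61, limma adjusted p = 0.856). Gene-level TPM does not separate its spliced from its unspliced form. The glands were lower in most animals, with log2 differences of -1.06, -1.40 and -1.79 from pancreas (SE 0.61, limma adjusted p = 0.337, 0.316 and 0.0621). With TMM scaling, and also without animal 5, XBP1 was called lower in sublingual gland than in pancreas and in liver. In both settings it was not called in parotid or submandibular gland against pancreas. Parotid 5, with 275 TPM, was the highest of all 25 libraries, and it was also the parotid library with 2619 TPM of plasma-cell markers and 912 TPM of lymphoid markers. The part of these cells in its XBP1 level was not tested. ATF6 was lower in pancreas than in liver without overlap, at 1.93 to 3.40 against 4.58 to 8.41 TPM (log2 -1.02, SE 0.44, limma adjusted p = 0.122). ERN1 had a median near 3 TPM in pancreas and in liver.

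Pancreas and liver were the most even tissues. Within a tissue the median ER gene had a highest value 2.37 times its lowest in pancreas and 2.51 times in liver, against 6.68, 5.15 and 5.77 times in parotid, submandibular and sublingual gland. Over all genes the medians were 2.27 and 2.28 times in pancreas and liver, and 10.7, 7.47 and 5.57 times in the glands. The unevenness was thus not particular to the ER genes. Between pancreas and liver, 7 of the 40 genes (17.5%) did not overlap, where 38.5% of all genes did not overlap and 17.5% were called. Of these, ERO1B, SSR4, SDF2L1 and SEC61B were higher in pancreas, and HSP90B1, SEC62 and ATF6 in liver. Pancreas was higher in every animal for 7 ER genes (17.5%) and liver for 9 (22.5%), against 9.19% and 51.7% of all genes.

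In the fit above each gene has 1 error shared by all 5 tissues, and the uneven glands enter it. Fitted to pancreas and liver alone, 10 ER genes were called, where 28.7% of all genes were. ERO1B, SDF2L1 and SSR4 were higher in pancreas, and ATF6, CALR, HSP90B1, KDELR2, PDIA3, PDIA4 and SEC62 were higher in liver. Of the calls over all genes in that fit, 14.6% were higher in pancreas. In that fit the limma adjusted p was 4.07e-05 for HSP90B1, 0.000410 for SSR4 and 0.00111 for SDF2L1. With TMM scaling of all libraries 9 were called, 8 of them higher in pancreas (ERO1B, SDF2L1, SPCS3, SRP68, SRPRB, SSR2, SSR3 and SSR4), and CALR alone higher in liver at a log2 difference of -1.03.

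**Figure D4:**
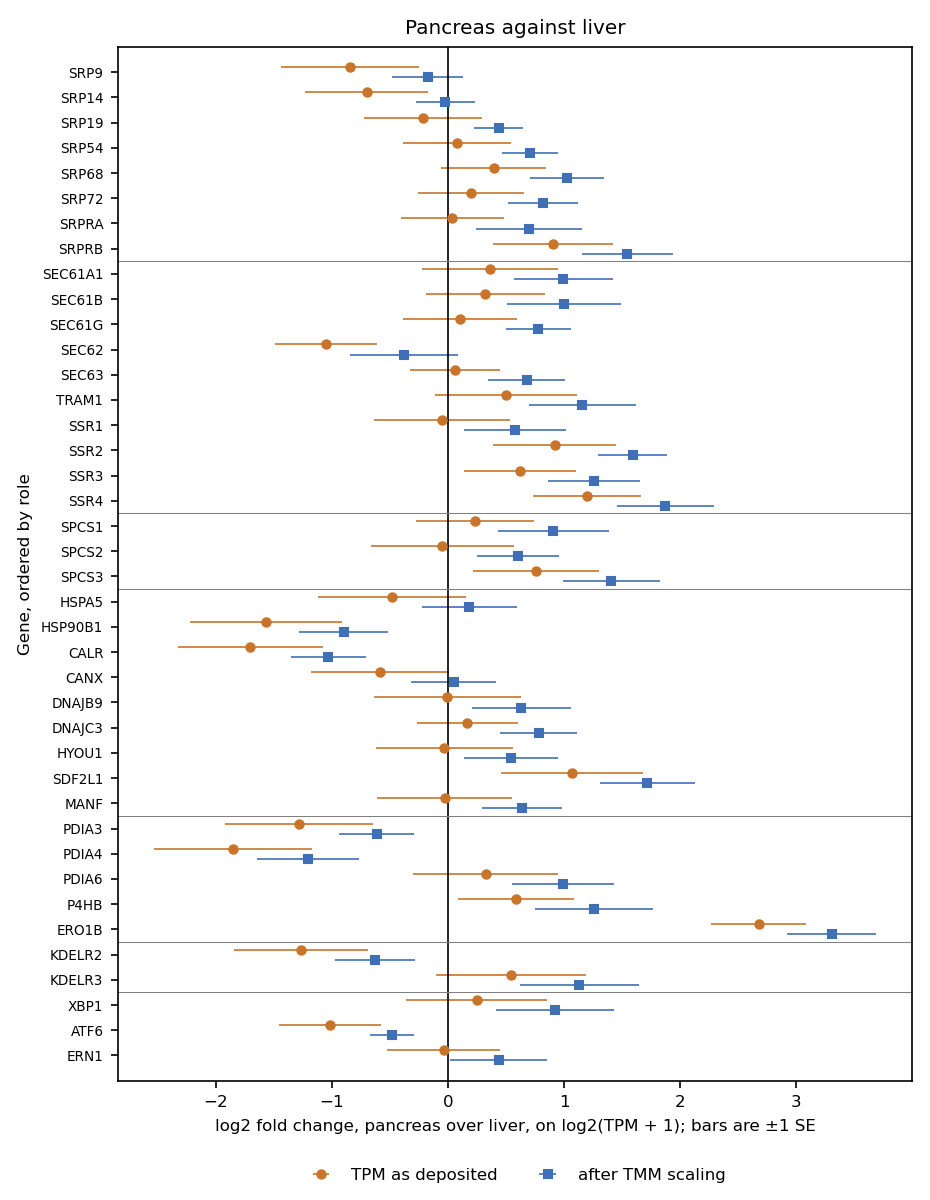
Log2 fold change of pancreas over liver on log2(TPM + 1) for the 40 ER genes, ordered by role, with bars of 1 SE, as deposited and with TMM scaling. As deposited ERO1B stands at 2.68 and PDIA4 at -1.85, and with TMM scaling the values lie further to the right, with the median moving from 0.07 to 0.70.

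Ratios of a pair of genes within a library do not depend on how libraries are scaled. The pairs were chosen after the values were seen, and the ratios are given as a description. ERO1B stood at 18.2 to 26.4 times its relative ERO1A in pancreas, at 1.10 to 3.32 times in liver, and at most 4.32 times in any gland. In sublingual 1 and 4, the mucosa-marker libraries, it was 0.02 and 0.01 times ERO1A, whose level there was 175 and 317 TPM. XBP1 stood at 46.6 to 62.0 times ATF6 in pancreas and 14.6 to 26.7 times in liver. SEC61B was 6.32 to 9.92 times HSP90B1 in pancreas and 1.74 to 2.48 times in liver. SSR4 was 3.37 to 8.85 times CALR in pancreas and 0.45 to 1.95 times in liver. SDF2L1 was 1.20 to 4.47 times PDIA4 in pancreas and 0.14 to 0.53 times in liver. In each of these 5 pairs the 5 pancreas libraries lay above the 5 liver libraries. Other pairs were mixed. P4HB over PDIA4, at 14.0 to 40.1 against 2.53 to 5.96, also lay above liver in every pancreas library. So did SEC61A1 over SEC61A2, at 3.72 to 33.8 against 0.61 to 1.74. KDELR2 over KDELR3 went the other way without overlap, at 1.07 to 2.70 in pancreas against 3.81 to 9.35 in liver. SSR4 over SSR1 and the pairs below overlapped between pancreas and liver. SEC61B was 7.09 to 47.2 times SEC61A1 in pancreas and 10.1 to 27.2 times in liver. HSPA5 was 1.06 to 2.13 times HSP90B1 in pancreas and 0.34 to 1.17 times in liver. KDELR2 was 0.23 to 0.39 times KDELR1 in pancreas and 0.32 to 0.53 times in liver.

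**Figure D5:**
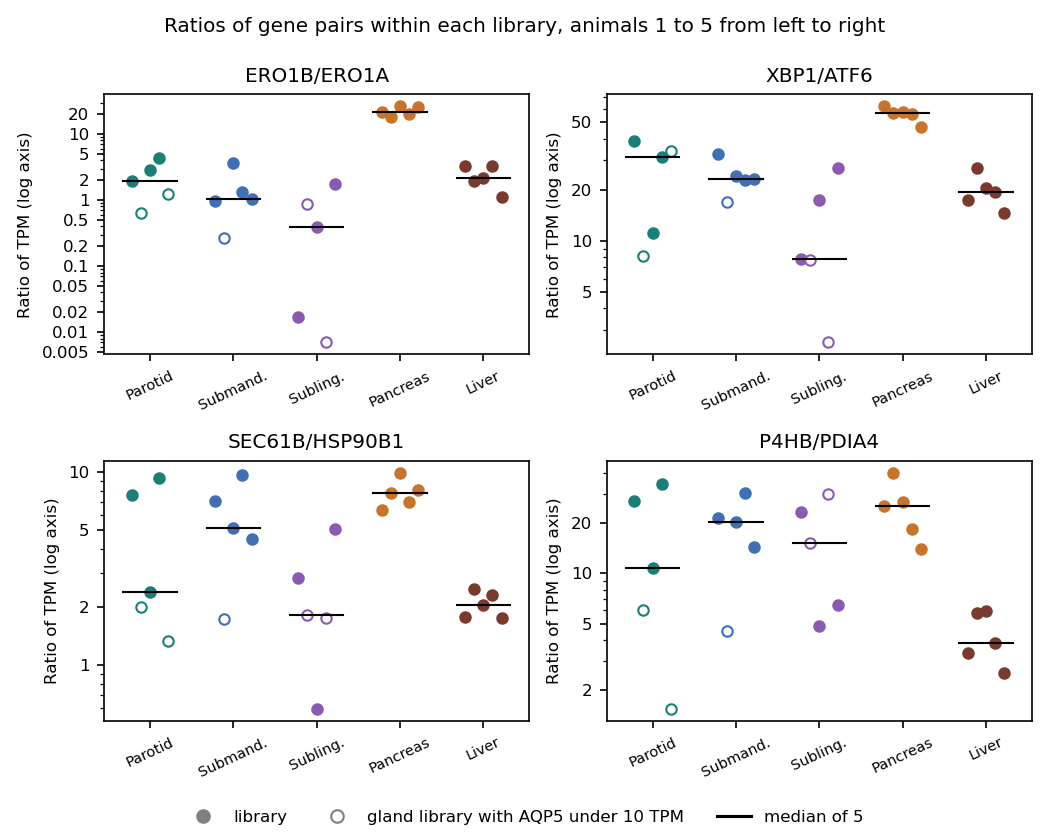
Ratios of TPM of gene pairs within each library on a logarithmic axis, with 1 point per library, animals 1 to 5 from left to right and a bar at the tissue median. For ERO1B over ERO1A the pancreas points, 18.2 to 26.4, stand above those of every other tissue.

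The glands could be described only with their unevenness. Without the 5 libraries with AQP5 under 10 TPM, 7, 8 and 6 ER genes were called in parotid, submandibular and sublingual gland against pancreas, and 10 in pancreas against liver. The shares of all genes called were then 6.68%, 7.87%, 30.3% and 26.7%. Of these calls over all genes, 30.6%, 34.2% and 91.1% were higher in parotid, submandibular and sublingual gland than in pancreas. SDF2L1, SSR2, SSR4, SPCS1, MANF and XBP1 were then lower than pancreas in both parotid and submandibular gland, for example SDF2L1 at -1.84 and -1.78 and XBP1 at -1.65 and -1.60. In sublingual gland 5 of the 6 were higher than pancreas (SRP9, KDELR2, CANX, HSP90B1 and SPCS3), and ERO1B was lower. The sublingual libraries left were those of animals 1, 3 and 5 only. Mucosa markers summed to 112678 TPM in that of animal 1, and plasma-cell markers to 8970 TPM in that of animal 5. The part of those cells in these calls was not tested. Between glands, 19 ER genes were then called lower in parotid than in sublingual gland and 19 lower in submandibular than in sublingual gland, where 28.5% and 30.4% of all genes were called. Of the calls over all genes, only 1.71% and 0.966% were higher in parotid and in submandibular gland. With TMM scaling on the same libraries both counts were 0, with 2.01% and 0.967% of all genes called. The counts against pancreas were then 4, 4 and 6 beside 9.03%, 10.1% and 13.0% of all genes, with ERO1B, SDF2L1, SSR2 and SSR4 lower in each gland.

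Single animals stood apart across many ER genes. Animal 5 had the lowest value of 28 of the 40 genes in pancreas and of 32 in liver, where it was also lowest for 45.9% and 36.8% of all genes. Its pancreas library had the highest islet marker sum, 13810 TPM against 575 to 5953 TPM in the others, and the lowest acinar marker sum. Their part in the ER levels was not tested. Submandibular 2 was highest for 37 of the 40 genes and for 77.6% of all genes. Parotid 5 and parotid 2 were highest for 26 and 13, and for 43.8% and 45.0% of all genes. Without animal 5, CALR and PDIA4 were called higher in liver than in pancreas in addition to ERO1B, where 15.9% of all genes were called.

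Other genes of the same pathway, taken from lists of glycosylation, translocation, folding, degradation, stress and ER export genes (68 of 72 symbols found), were read in the same fit. These lists were chosen with earlier results of these data known, so their shares beside all genes are a description and no test. Between pancreas and liver 7 of the 68 (10.3%) were called higher in pancreas and 4 (5.88%) in liver, against 2.86% and 14.6% of all genes. Against pancreas, parotid had 0 called higher and 2 lower, submandibular gland 0 and 5, and sublingual gland 1 and 5. The shares lower than pancreas were 2.94%, 7.35% and 7.35%, against 2.40%, 2.81% and 2.49% of all genes. ERP27, an ER protein that binds isomerases, stood at 479, 291, 401, 505 and 219 TPM in pancreas and at most 7.09 TPM in any other library (log2 6.30 for pancreas against liver, limma adjusted p = 2.60e-11). DERL3, of the machinery that removes misfolded proteins, stood at 146 to 206 TPM in pancreas and 12.9 to 19.9 TPM in liver (log2 3.48, limma adjusted p = 0.000505). Parotid 5 had 390 TPM of DERL3, the highest of all libraries.

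BHLHA15 (MIST1), a transcription factor of secretory cells with granules, stood at 22.2 to 115 TPM in pancreas and 1.64 to 2.93 TPM in liver (log2 4.26, limma adjusted p = 2.64e-05). In parotid it was 37.2 to 82.3 TPM except in the library of animal 2, at 1.55 TPM, and in submandibular gland 25.6 to 55.8 TPM except in animal 2, at 4.03 TPM. In sublingual gland BHLHA15 was called lower than in pancreas (log2 -3.12, limma adjusted p = 0.00387). CREB3L3, a membrane-bound transcription factor of hepatocytes, stood at 21.9 to 100 TPM in liver and at most 1.79 TPM elsewhere (log2 -5.10 for pancreas against liver, limma adjusted p = 8.54e-12). FKBP11, a prolyl isomerase of secretory tissue, was lower than pancreas in all 3 glands, at log2 differences of -2.10, -2.13 and -2.52 (limma adjusted p between 0.00234 and 0.0134). SEC61A2, the second gene for the channel pore, stood at 9.67 to 13.6 TPM in liver and 1.14 to 2.04 TPM in pancreas (log2 -2.26, limma adjusted p = 0.000445). SEC61A1 was 0.61 to 1.74 times SEC61A2 in liver and 3.72 to 33.8 times in pancreas. No glycosylation gene of the 12 found was called by limma between pancreas and liver or between gland and pancreas, and 0 had an unadjusted p under 0.05 in these 4 comparisons. Over all 14991 genes, 4337 had an unadjusted p under 0.05 (limma) between pancreas and liver. For parotid, submandibular and sublingual gland against pancreas the numbers were 2779, 1836 and 4653.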

How the data were processed

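The deposited values were TPM per gene, and the name of the authors' table states kallisto abundances. The submitters' processing notes name kallisto, cutadapt, HISAT2 and other tools without roles or versions, and the index and build are not given in the sources used here. Depth is unknown, so no counting error is given. All 40 symbols matched RefSeq gene names of the Panubis1.0 assembly. Libraries were grouped by their labels. limma 3.58.1 (R 4.3.3; tissue and animal as terms, eBayes with a trend) was fitted to log2(TPM + 1) of all 25 libraries, which understates changes of low genes. The fit was also run on simulated data. Those data had the same spread in every tissue and no animal effect, so the run does not cover the uneven glands. Animal numbers are the sample numbers in the labels. They were used to pair the tissues, because the design text of the series states that the same animals gave every tissue. Deviations from tissue means correlated at 0.16 within and -0.04 between animals.

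Full statistics were given for HSPA5, XBP1, SEC61A1 and SDF2L1 in comparisons with pancreas and for called genes that reached a mean of 10 TPM and moved 1 way in 5 animals. Statistics of other genes were chosen after their values were seen. Members and lists were chosen with earlier results of these data known. The 16 alternatives included no animal block, other scalings, filters and pseudocounts, and left-out libraries. The 2 alternatives that leave out libraries by AQP5 were added after seeing the data. Whether the 5 animals' libraries share a preparation batch is not given.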

Additional observations from a re-analysis of the deposited data

Results flagged for a closer look

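In 16 of the 200 groups of 5 animals (40 genes in 5 tissues) 1 library stood far from the other 4 on the log2(TPM + 1) scale, by a gap that chance gives in about 1 of 20 groups. Of these, 7 were in the liver of animal 5 and 5 in the submandibular gland of animal 2, so they are not independent of each other.

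The liver of animal 5 was low for SRP54 (6.84 TPM, others 12.8 to 13.5), SRPRB (7.41 TPM, others 13.0 to 16.2), SSR2 (38.3 TPM, others 66.6 to 77.3), CALR (98.0 TPM, others 322 to 430), PDIA3 (77.5 TPM, others 156 to 197) and P4HB (56.0 TPM, others 310 to 400). It was high for SRP72 (15.7 TPM, others 7.06 to 8.81). The pancreas of the same animal was low for SPCS1 (107 TPM, others 186 to 204) and P4HB (121 TPM, others 376 to 593).

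The submandibular gland of animal 2, with AQP5 at 5.40 TPM, was high for SRP72 (25.5 TPM, others 5.83 to 7.32), HSPA5 (231 TPM, others 22.7 to 42.7), DNAJC3 (11.9 TPM, others 3.11 to 4.56), SDF2L1 (39.6 TPM, others 8.21 to 11.0) and MANF (155 TPM, others 21.0 to 34.2). In parotid, animal 5 was high for SDF2L1 (92.1 TPM, others 7.69 to 15.3) and animal 2 for KDELR3 (76.8 TPM, others 5.33 to 9.31).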

How the results depend on the processing

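Of 416 values from the 26 named gene results under 16 alternatives, 337 kept their direction and side of the threshold, 31 lost and 25 gained a call, and 23 changed sign. All sign changes were in HSPA5 and SEC61A1, which were not called in the fits concerned, and the cause of the changes below was not tested. Depth is unknown, so the precision of low genes cannot be set.

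Counts of ER genes called are given for parotid, submandibular and sublingual gland against pancreas, pancreas against liver, and then the 3 glands against liver, in that order. They were 2, 2, 3, 1, 0, 1 and 1 in the fit reported, beside 3.82%, 4.08%, 9.47%, 17.5%, 13.8%, 16.5% and 15.4% of all genes. TMM scaling gave 6, 5, 16, 9, 4, 5 and 4, beside 8.16%, 8.51%, 10.8%, 18.3%, 19.9%, 20.1% and 20.2% of all genes. Median-of-ratios scaling gave 6, 7, 16, 8, 4, 4 and 5, beside 8.18%, 8.56%, 11%, 18.3%, 19.8%, 20% and 20.4%. Fits to only the tissues compared gave 0, 2, 2, 10, 0, 1 and 0, beside 1.39%, 3.76%, 5.92%, 28.7%, 9.65%, 15.5% and 13.2% of all genes. Leaving out the 4 gland libraries high in fat, lymphoid or muscle markers gave 3, 2, 5, 8, 5, 4 and 2, and 3 for parotid against sublingual gland. All genes called were then 4.52%, 5.84%, 34%, 23.4%, 22.9%, 23.1% and 25%, and 20.1%. Leaving out gland libraries with AQP5 under 10 TPM gave 7, 8, 6, 10, 10, 12 and 4, and 19 each for parotid and submandibular against sublingual gland. Over all genes this gave 6.68%, 7.87%, 30.3%, 26.7%, 32%, 32.5% and 25.7%, and 28.5% and 30.4%. With TMM scaling on those libraries the counts were 4, 4, 6, 11, 8, 9 and 3, and 0 between glands. The first 7 stood beside 9.03%, 10.1%, 13%, 19.8%, 21.1%, 21.7% and 23.3% of all genes. Without the animal (replicate) block, the count for sublingual gland against pancreas was 1, through the loss of SRP9 and SSR4, and the other 9 counts did not move. Without a filter on low values, sublingual gland against liver had 0, beside 9.89% of all genes. A filter of 5 TPM, a pseudocount of 0.1 and no fold minimum moved no count by over 1.5 times.

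Leaving out 1 animal at a time, the counts ranged from 1 to 3, 1 to 2, 1 to 6, 1 to 3, 0 to 3, 0 to 5 and 0 to 4, and from 0 to 3 for submandibular against sublingual gland. Leaving out animal 1, 3 or 4 gave the low end of each range. Leaving out animal 5 gave the high end of the first 5 and of the seventh, and leaving out animal 2 gave the 5, the last 3 and also the 2 for submandibular gland against pancreas. Over all genes, the shares called ranged in the same order from 2.09% to 4.14%, 2.16% to 4.52%, 2.61% to 19.6% and 11.5% to 17.8%. They ranged from 8.91% to 16.7%, 10.3% to 23.6% and 10.2% to 19.7% against liver, and from 0% to 16.9% for submandibular against sublingual gland.

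For HSPA5, parotid against pancreas became -0.40 with TMM scaling, -0.43 with median-of-ratios scaling, -0.63 without the 4 libraries, and -0.87 and -0.55 without the AQP5 libraries, unscaled and TMM-scaled. Leaving out 1 animal gave -0.44 to 0.48. HSPA5 in sublingual gland against pancreas became 0.34 without the 4 libraries and 0.61 without the AQP5 libraries, and ranged from -0.33 to 0.26 when 1 animal was left out. HSPA5 in pancreas against liver became 0.18 with TMM, 0.22 with median-of-ratios scaling and 0.16 without the AQP5 libraries under TMM. For SEC61A1, parotid against pancreas became -0.25, -0.28, -0.49, -0.61 and -0.29 under the same 5 settings, and -0.43 to 0.67 without 1 animal. SEC61A1 in submandibular gland ranged from -0.77 to 0.065 without 1 animal, and in sublingual gland it became 0.25 without the AQP5 libraries. With TMM and with median-of-ratios scaling of all libraries, SEC61A1 was called lower in sublingual gland than in pancreas.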
